A study of Mus musculus with 6 samples.

Results

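Described here are 30 genes of cholesterol synthesis and uptake, from acetyl-CoA to cholesterol, with their regulators and sterol carriers, in testis with and without Phf13. They were chosen by symbol, and 29 of the 30 had at least 1 probe set annotated with exactly that symbol, 64 probe sets of 45037 tested. Acat2 had none and is not analysed here. Of the 29 genes, 11 had 1 probe set and 18 had several, and the brightest probe set by its mean over the 6 arrays stands for such a gene unless another is mentioned.

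Cells make cholesterol from acetyl-CoA through the mevalonate pathway, and take up more from lipoproteins through lysosomes. When sterols in the endoplasmic reticulum are low, the escort protein SCAP carries the transcription factors SREBP1 and SREBP2 to the Golgi, where a pair of proteases releases their active part, which then turns on the genes of the pathway. In the testis, Leydig cells turn cholesterol into testosterone, and germ cells are known to contain much lanosterol demethylase, whose product is a meiosis-activating sterol.

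Whole testis of mice aged 5 weeks was compared between wild-type animals (3 arrays) and animals lacking Phf13 (3 arrays), a gene whose PHD finger protein binds methylated histone H3. No source used here gives the strain, the type of knockout allele or whether each array came from another animal. The p-values therefore measure only how far these samples spread, and that spread may be technical. The tissue holds germ cells and somatic cells together, and in such bulk samples fewer cells of a type and less RNA per cell cannot be told apart. All values are log2 levels per probe set as deposited by the authors. The median probe set of an array ran from 5.22 to 5.28, and their lower quartiles from 3.66 to 3.75. The Phf13 probe set averaged 9.53 ± 0.05 on wild-type arrays and 6.62 ± 0.08 on knockout arrays (SD, n = 3 each), with every knockout array below every wild-type array. The 10 spermatocyte markers had means from 8.23 to 13.61 per gene, and the 4 liver markers at means from 3.24 to 5.80. The arrays formed a pair of sets by the level of their 18S rRNA controls. The first set (wild type 1, wild type 2 and knockout 1) had 18S means from 12.03 to 12.67, and the second (wild type 3, knockout 2 and knockout 3) from 9.69 to 10.71. Since the sets hold the genotypes unequally, the difference inside each set is given for the genes with the larger differences, on the probe set that stands for the gene.

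Promoter sequence was available from RefSeq (GRCm38.p6) for 24 of the 29 genes, as 250 bases before to 50 after each annotated start. A feature the selection did not use was frequent in them: CCAAT, the sequence bound by NF-Y, a partner of SREBP, occurred on either strand in 21 of the 24 genes (87.5%), against 41.1% of 27025 genes with such a sequence. Scap, Mbtps1 and Mbtps2 lacked these letters in the window. GGGCGG, the Sp1 box, was also found in 21 of the 24 (87.5%, against 38.2%). The sterol regulatory element in the form TCACNCCAC was found in 1 of the 24, Hmgcs1, against 1.44% of genes, and the cAMP response element TGACGTCA in 0 of 24, against 2.03%. The motifs were counted separately where end bases of matches coincide, and genes with several annotated starts were searched at each. A match is a description of the letters and was not tested for binding.

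The 200 bases upstream of the start are shown for the 4 genes with an unadjusted p under 0.05, which were chosen for printing after their values were seen. Of these, Hmgcs1 alone holds the sterol element in the exact form TCACNCCAC, and other forms of that element were not searched. Capitals mark CCAAT (as ATTGG on the other strand) and TCACNCCAC. In Hmgcs1, at chr13:119690151-119690350 on the plus strand, the sterol element begins 137 bases upstream of the start, between CCAAT boxes that begin 176 and 45 bases upstream. Ebp, at chrX:8193513-8193712 on the minus strand, has CCAAT boxes that begin 170 and 55 bases upstream. Srebf2, at chr15:82147069-82147268 on the plus strand, has a CCAAT box that begins 135 bases upstream. Mbtps2 lies at chrX:157598716-157598915 on the minus strand.
Hmgcs1: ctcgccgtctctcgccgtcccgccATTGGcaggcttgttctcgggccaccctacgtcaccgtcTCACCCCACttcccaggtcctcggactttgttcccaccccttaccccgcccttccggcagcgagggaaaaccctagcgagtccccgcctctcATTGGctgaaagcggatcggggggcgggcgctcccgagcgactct
Ebp: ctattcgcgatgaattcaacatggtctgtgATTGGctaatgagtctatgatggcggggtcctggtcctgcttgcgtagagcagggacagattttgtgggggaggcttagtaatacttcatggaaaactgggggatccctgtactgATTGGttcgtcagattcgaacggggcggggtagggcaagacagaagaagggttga
Srebf2: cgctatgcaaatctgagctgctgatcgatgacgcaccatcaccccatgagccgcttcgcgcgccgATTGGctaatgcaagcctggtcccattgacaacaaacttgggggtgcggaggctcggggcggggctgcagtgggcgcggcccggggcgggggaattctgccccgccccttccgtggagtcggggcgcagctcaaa
Mbtps2: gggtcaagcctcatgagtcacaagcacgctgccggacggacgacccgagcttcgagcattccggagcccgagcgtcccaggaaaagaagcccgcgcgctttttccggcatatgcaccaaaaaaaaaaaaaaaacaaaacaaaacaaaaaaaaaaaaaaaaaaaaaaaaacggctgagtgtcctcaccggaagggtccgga

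Over the system as a whole, no member passed the test in the knockout. Of 64 member probe sets, 0 were higher and 0 lower at an adjusted p under 0.05 (limma with Benjamini-Hochberg adjustment over all probe sets), against 0.0555% higher and 0.0444% lower over the array. The smallest limma adjusted p among the 64 was 0.190. With p unadjusted and under 0.05, Hmgcs1, Ebp and Mbtps2 were higher, 3 genes where the array had 8.58%, and Srebf2 was lower, 1 gene where the array had 8.72%. Together these are 13.8% of the 29 genes, against 17.3% of 18193 genes on the array. By probe sets it was 8 of 64 (12.5%), against 15.1%. Groups did not overlap for 3 of the 29 genes (10.3%), against 23.5% of all genes. Mbtps2 was the 1 higher gene among them (9.92% over the array), and Srebf2 and Lbr were the 2 lower (13.5%). Both shares of the members were below those of the whole array. In all, 19 genes differed upwards and 10 downwards, with a median difference of 0.06, where all genes had a median of 0.01.

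The precision was enough to bound most of these differences within 1 log2 unit, which is wider than the largest of them, 0.50. Standard errors of the 29 genes ran from 0.08 to 0.24 on the log2 scale, with a median of 0.12. For 28 of the 29 the 95% interval lay inside 1 log2 unit on both sides, as it did for 17932 of 18193 genes on the array. The exception was Msmo1, whose interval reached 1.06. A missed threshold does not show equal levels, and each interval allows changes up to its bounds.

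**Figure D1:**
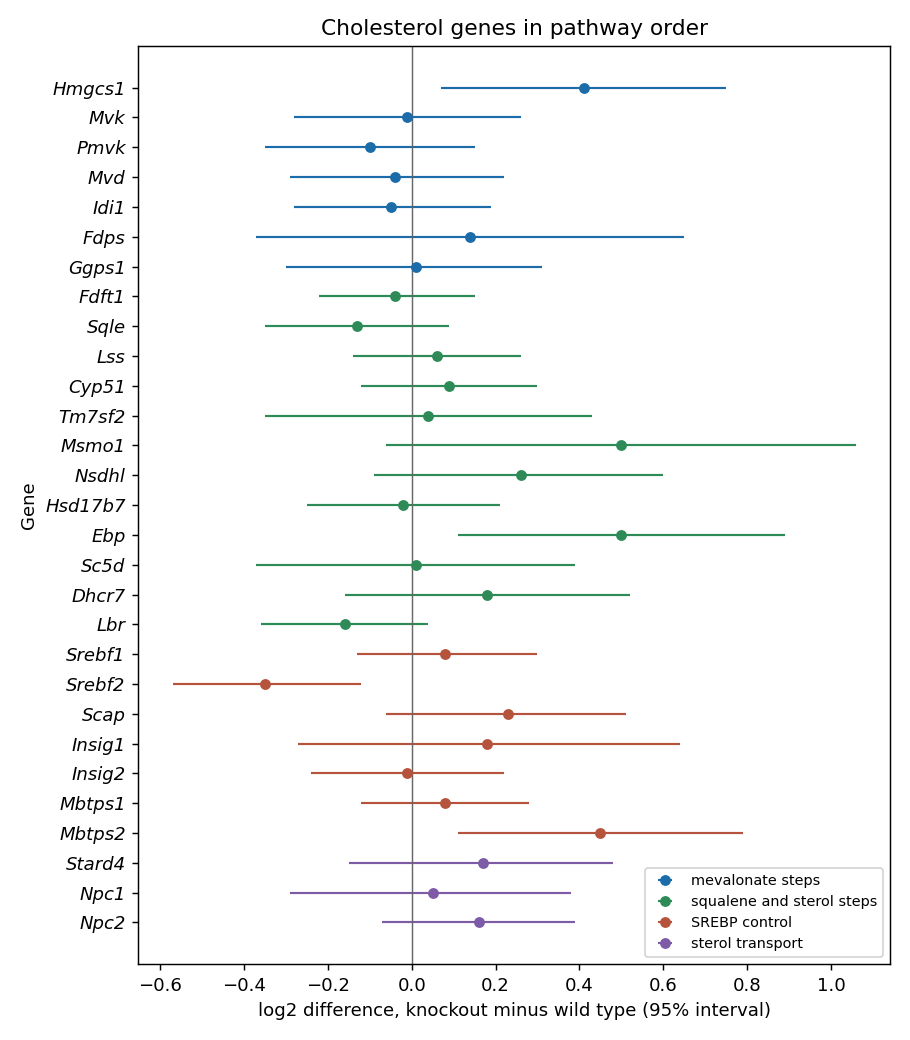
Difference of log2 level, knockout minus wild type, for 29 cholesterol genes from top to bottom in pathway order; points are limma estimates, bars their 95% intervals, and colours the role. Hmgcs1, Ebp and Mbtps2 lie right of 0 and Srebf2 left of it with intervals that leave out 0, while most other genes lie within 0.3 of 0.

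The mevalonate steps build the isoprenoid units. Hmgcs1, the cytosolic synthase that makes HMG-CoA, the precursor of mevalonate, was measured at 9.46, 9.69 and 9.92 in wild type and at 9.86, 10.18 and 10.26 in knockout. Only knockout 1 lay within the range of the wild-type arrays. The difference was 0.41 (SE 0.15, a 1.33-fold ratio), with limma's adjusted p = 0.267. Within the first set of arrays it was 0.29, and within the second 0.30. This probe set is of a type whose probes may also bind related transcripts. Another, of the plain type, read 8.87, 9.33 and 9.41 in wild type and 9.45, 9.69 and 9.80 in knockout, without overlap and with a difference of 0.44. The 3 brightest of its 5 probe sets differed by 0.38 to 0.44, each at an unadjusted p under 0.05, and the others by 0.15 and 0.00, the last on a probe set dim in both genotypes at 3.23.

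The later mevalonate enzymes differed by at most 0.14 on their brightest probe sets. Mvk, mevalonate kinase, stood at 6.89 ± 0.14 and 6.89 ± 0.17, a difference of -0.01. Pmvk, which adds the next phosphate, differed by -0.10, and Mvd, the decarboxylase that yields isopentenyl diphosphate, by -0.04. The Mvd arrays read 6.42, 6.25 and 6.58 in wild type and 6.32, 6.32 and 6.50 in knockout, and its other probe set differed by 0.01. Idi1, the isomerase of that unit, read 9.22 ± 0.12 and 9.17 ± 0.11 (SD, n = 3 each). Its arrays read 9.10, 9.34 and 9.22 in wild type and 9.05, 9.27 and 9.20 in knockout, with overlap. Its probe sets differed in sign, at -0.05 and 0.14, both with standard errors of at least 0.10. Fdps makes farnesyl diphosphate, the branch point towards sterols, ubiquinone and protein prenylation. It was measured at 9.31, 9.57 and 9.88 in wild type and at 9.25, 9.83 and 10.10 in knockout, so the lowest and the highest values were both in knockout. Its difference of 0.14 had an SE of 0.22, and was -0.19 in the first set and 0.08 in the second. Ggps1, which lengthens farnesyl diphosphate for prenylation, had 4 probe sets between -0.14 and 0.14. The brightest read 6.38, 6.60 and 6.88 in wild type and 6.50, 6.69 and 6.69 in knockout, inside the wild-type range. Apart from Hmgcs1, each of the 7 had an interval that included 0.

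Among the 12 genes that turn farnesyl diphosphate into cholesterol, the early steps differed by at most 0.13. Fdft1, squalene synthase, was bright, at 11.98 ± 0.03 for wild type against 11.94 ± 0.03 for knockout (SD, n = 3 each), with an interval from -0.22 to 0.15. Its arrays read 12.01, 11.97 and 11.96 in wild type and 11.97, 11.95 and 11.91 in knockout, and its 4 probe sets lay between -0.04 and 0.08. The brightest is, as for Hmgcs1, of the type whose probes may also bind related transcripts. The next, of the plain type, averaged 11.56 in wild type and 11.54 in knockout, and the others were dim, with means from 4.74 to 5.04. Sqle, squalene epoxidase, differed by -0.13 (SE 0.10). Its knockout arrays read 9.66, 9.49 and 9.40 and its wild-type arrays 9.68, 9.64 and 9.61, so knockout 2 and 3 were below the wild-type range and knockout 1 inside it. Lss, which closes the squalene chain into lanosterol, differed by 0.06, with other probe sets at 0.21 and -0.20. Its arrays read 6.69, 6.71 and 6.83 in wild type and 6.74, 6.81 and 6.85 in knockout. Cyp51, the lanosterol demethylase known for its expression in germ cells, read 9.40, 9.36 and 9.50 in wild type and 9.58, 9.41 and 9.55 in knockout. The groups overlapped and the difference was 0.09, with an interval from -0.12 to 0.30. Its other probe sets, with means under 5, differed by 0.14 and -0.17.

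Of the 8 enzymes that act after Cyp51, Msmo1, Nsdhl and Ebp had the largest differences, none past the test, and are given first. Msmo1 is the oxidase that removes the methyl groups at carbon 4 of the ring. It read 6.88, 7.18 and 7.54 in wild type and 7.16, 8.06 and 7.88 in knockout, where knockout 1 lay among the wild-type arrays. The difference was 0.50 (SE 0.24, limma adjusted p = 0.377), with 0.13 in the first set and 0.43 in the second. It was 0.77 without knockout 1 and 0.32 without knockout 2. A further Msmo1 probe set went the other way without overlap, from 3.29, 3.13 and 3.15 in wild type to 2.80, 2.80 and 2.87 in knockout. That difference of -0.37 (SE 0.09, limma adjusted p = 0.190) came from a level under the lower quartile of the arrays, and with the mean of both probe sets the difference was 0.07.

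Nsdhl, an X-linked dehydrogenase of the same demethylation, read 7.29, 7.42 and 7.52 in wild type and 7.32, 7.87 and 7.81 in knockout. Again knockout 1 was inside the wild-type range and the others above it, for a difference of 0.26 (SE 0.15). It was -0.04 in the first set and 0.32 in the second, and ran from 0.15 without knockout 2 to 0.43 without knockout 1. Ebp, also X-linked, encodes the sterol isomerase that shifts a ring double bond. Its values were 7.59, 7.70 and 8.01 in wild type and 7.92, 8.37 and 8.52 in knockout, where knockout 1 fell below wild type 3. The difference was 0.50 (SE 0.17, a 1.42-fold ratio), with limma's adjusted p = 0.256. It was 0.28 in the first set and 0.44 in the second.

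The remaining sterol enzymes varied in both directions. Hsd17b7, the ketosteroid reductase of the demethylation complex, differed by -0.02, and its other 3 probe sets by 0.13 to 0.26. Its brightest read 5.92, 5.87 and 5.99 in wild type and 5.75, 5.93 and 6.04 in knockout. Sc5d, a desaturase, differed by 0.01, with knockout values of 7.42, 8.09 and 7.93 on both sides of the wild-type values of 7.67, 7.87 and 7.86. Dhcr7, the reductase of the last step, differed by 0.18 (SE 0.15), with 0.03 in the first set and 0.13 in the second. The reduction of the C14 double bond can be done by either of a pair of proteins. Tm7sf2, in the endoplasmic reticulum, differed by 0.04. Lbr, the lamin B receptor of the inner nuclear membrane, read 8.60, 8.69 and 8.60 in wild type and 8.55, 8.38 and 8.48 in knockout. The Lbr groups did not overlap, but the difference was small, at -0.16 (SE 0.09, limma adjusted p = 0.430).

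Of the regulators, Srebf2, which encodes SREBP2, the factor that acts chiefly on cholesterol genes, was lower in every knockout array. It read 7.25, 7.12 and 6.99 in wild type and 6.71, 6.84 and 6.77 in knockout. The difference was -0.35 (SE 0.10, limma adjusted p = 0.217), and it was -0.48 in the first set and -0.19 in the second. The other Srebf2 probe set read 6.87, 6.85 and 6.69 against 6.79, 6.66 and 6.71, with overlap and a difference of -0.08, and the mean of both probe sets differed by -0.22. The testis is known to make a short germ-cell form of SREBP2 beside the membrane-bound one. No source used here says which of these forms each probe set detects. Srebf1, which encodes the factor that acts chiefly on fatty acid genes, differed by 0.08, from 7.25 ± 0.06 to 7.33 ± 0.11 (SD, n = 3 each).

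Mbtps2 encodes the second of the proteases that release SREBP, and is X-linked like Nsdhl and Ebp. Its values were 5.78, 5.89 and 5.77 in wild type and 5.94, 6.28 and 6.56 in knockout. All knockout arrays were above all wild-type arrays, with knockout 1 closest to them. The difference was 0.45 (SE 0.15, a 1.36-fold ratio), with limma's adjusted p = 0.253, and it was 0.11 inside the first set and 0.65 inside the second. Without knockout 3 it was 0.30 (limma adjusted p = 0.545). Mbtps1, the first protease, differed by 0.08 on its brightest probe set, at 7.88, 7.98 and 7.80 against 7.94 and 7.96 in knockout 1 and 2 with knockout 3 the highest of all, and by -0.40 on its dimmest, which read 5.54, 5.60 and 5.24 against 5.19, 4.93 and 5.07 without overlap (limma adjusted p = 0.233).

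Scap, the escort, read 7.79, 7.79 and 7.77 in wild type and 7.74, 8.07 and 8.22 in knockout. The wild-type arrays were almost equal and the knockout arrays fell on both sides of them, for a difference of 0.23 (SE 0.13). It was -0.05 in the first set and 0.38 in the second, and ran from 0.12 without knockout 3 to 0.36 without knockout 1. The other Scap probe set differed by -0.07. Insig1, which holds SCAP back when sterols are high and is itself a SREBP target, read 6.61, 6.65 and 6.83 against 6.38, 7.04 and 7.22. Knockout 1 was the lowest of the 6 arrays and knockout 3 the highest, and the difference was 0.18 (SE 0.20). It was -0.25 in the first set and 0.30 in the second, and 0.02 with the sets as a block. Without knockout 1 it was 0.43, and without knockout 3 it was 0.01. Insig2, with the same role, stood at 9.47 ± 0.03 and 9.46 ± 0.16 (SD, n = 3 each). Its arrays read 9.44, 9.49 and 9.48 in wild type and 9.30, 9.61 and 9.46 in knockout. Its other probe sets differed by 0.01 and 0.23.

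The 3 sterol carriers differed by 0.05 to 0.17, all with intervals that included 0. Stard4 carries cholesterol through the cytosol and read 5.97, 6.18 and 5.88 in wild type and 6.28, 5.91 and 6.34 in knockout. Npc1 and Npc2 hand cholesterol out of the lysosome. Npc1 stood at 4.72 ± 0.18 and 4.77 ± 0.25 (SD, n = 3 each). Npc2 read 10.06 and 9.93 in wild type 1 and 2, with wild type 3 and knockout 1 between them, and 10.19 and 10.27 in knockout 2 and 3. It was equal between genotypes in the first set (0.00) and differed by 0.23 in the second. The other Npc2 probe sets differed by 0.22, -0.10 and -0.10, and with the mean of its probe sets the difference was 0.04.

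**Figure D2:**
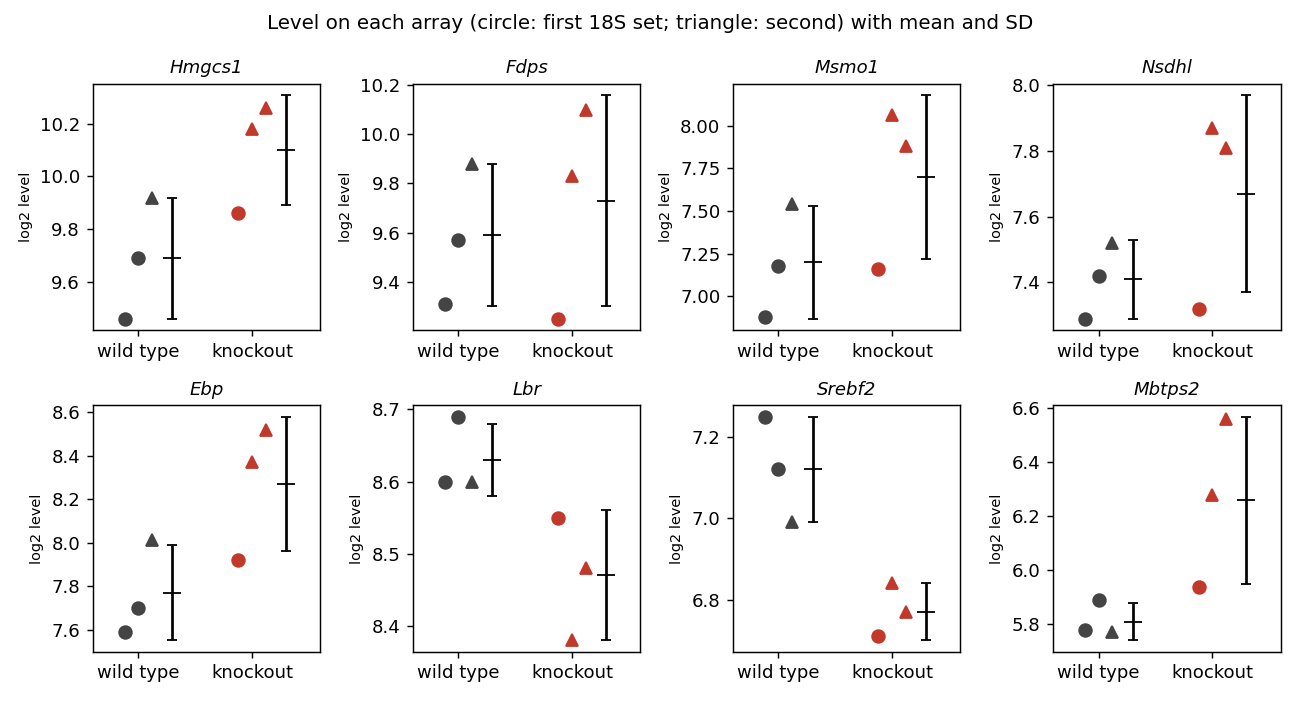
Log2 level of 8 cholesterol genes on each array, wild type in grey and Phf13 knockout in red, circles for the first set of arrays by 18S controls and triangles for the second; the black bars give mean and SD (n = 3), and each panel has its own scale that does not start at 0. Knockout 1, the red circle, lies lowest of the knockout arrays in every panel except that of Lbr, and in Hmgcs1, Fdps, Msmo1, Nsdhl and Ebp wild type 3, the grey triangle, is the highest wild-type array.

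For 13 of the 18 genes with several probe sets, the probe sets of the gene differed in sign. Most of those differences were near 0, and for Msmo1, Mbtps1 and Lss they spanned over 0.4. Of the 64 probe sets, 6 had a mean below the lower quartile of all values on the arrays.

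**Figure D3:**
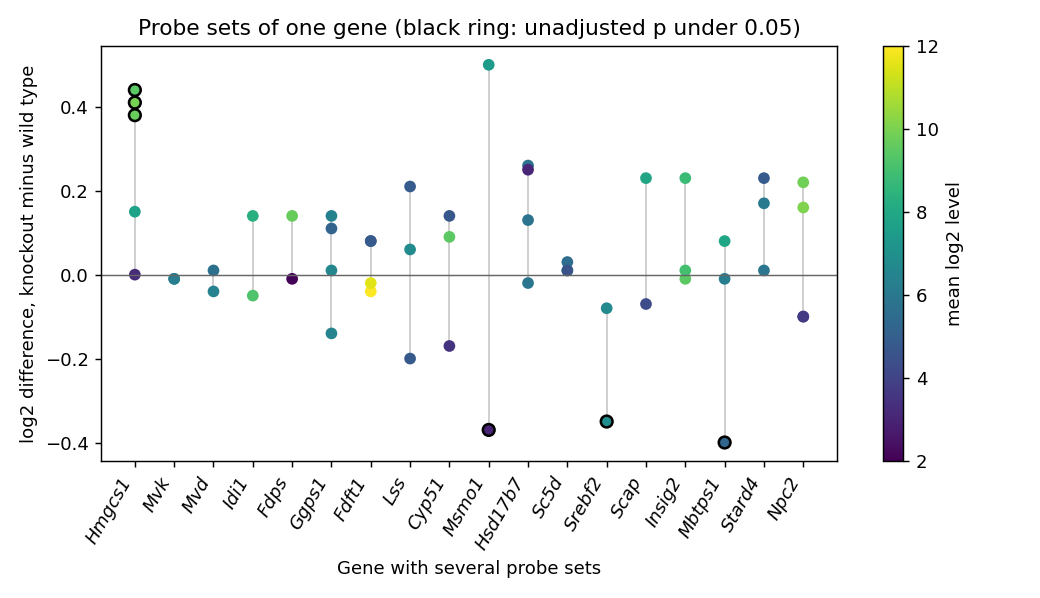
Log2 difference, knockout minus wild type, of each probe set of the 18 genes that have several; the colour gives the mean log2 level over the 6 arrays and a black ring an unadjusted p under 0.05. The 3 bright probe sets of Hmgcs1 lie together from 0.38 to 0.44, whereas those of Msmo1 lie at 0.50 and -0.37.

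Levels were also compared between the sets of arrays. In both genotypes, 18 of the 29 genes (62.1%) were higher in the second set than in the first, against 38.8% of all genes, and 5 were lower in both, against 22.0%. All 7 mevalonate genes were among the 18, although the wild-type shift of Idi1 was 0.00 to 2 decimals. Msmo1 was higher in the second set by 0.51 in wild type and 0.81 in knockout, Fdps by 0.44 and 0.71, Ebp by 0.37 and 0.53, and Hmgcs1 by 0.35 and 0.36. For Msmo1 and Fdps these shifts exceeded the difference between genotypes, and for Hmgcs1 and Ebp they were of similar size to it. Insig1 was shifted by 0.20 and 0.75, and Nsdhl by 0.16 and 0.52. Srebf2 was not shifted one way, with -0.20 in wild type and 0.09 in knockout. The wild-type group has 1 array in the second set and the knockout group has 1 in the first, so each shift rests on a single array on one side, and no test of the sets was made.

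With the genotypes compared inside each set, 9 of the 29 genes were above wild type in both sets (31.0%, against 27.8% of all genes) and 7 were below in both (24.1%, against 34.9%). The median over the members was -0.01 in the first set and 0.08 in the second. In a limma fit with the sets as a block, Hmgcs1 differed by 0.29, Ebp by 0.35, Srebf2 by -0.33 and Mbtps2 by 0.38, with limma's adjusted p from 0.198 to 0.278. Msmo1 differed by 0.28 in that fit, against 0.50 without the block, and Fdps turned from 0.14 to -0.05.

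**Figure D4:**
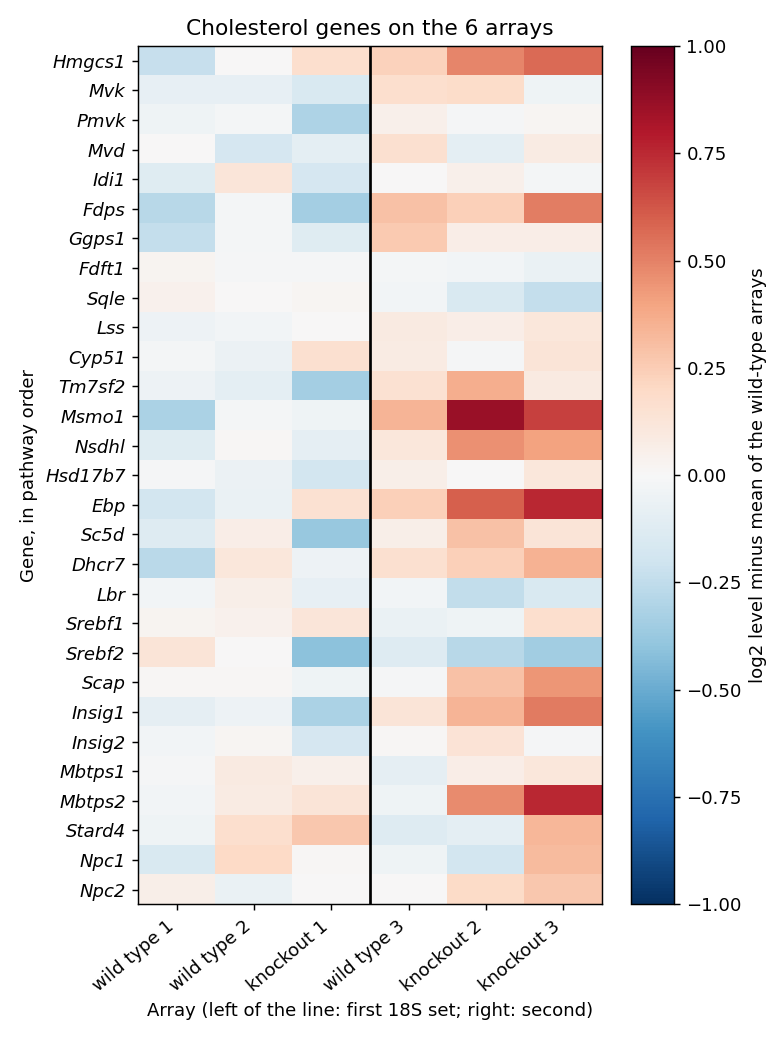
Log2 level of the 29 genes minus the mean of the wild-type arrays, one row per gene in pathway order and one column per array, with the first set by 18S controls left of the line and the second right of it. Hmgcs1, Fdps, Msmo1, Nsdhl, Ebp and Insig1 are red on all 3 arrays of the second set, wild type 3 included, and Srebf2 is blue on the knockout arrays of both sets.

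The 3 X-linked members, Nsdhl, Ebp and Mbtps2, differed by 0.26, 0.50 and 0.45. The 617 genes of the X chromosome on the array had a median difference of 0.27, with 553 above 0, and 46.2% of them had an unadjusted p under 0.05, where the autosomal genes had a median of 0.00 and 16.3%. Over the 26 autosomal members the median was 0.04 and that share 7.69%. Whether the X-linked members differ apart from the rest of their chromosome was not tested.

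Markers of cell types were read beside these genes, and 0 of them passed the adjusted threshold in limma. Over all genes, 8.58% were higher and 8.72% lower with an unadjusted limma p under 0.05, and 51.3% had a difference above 0. For Sertoli cells 11 of 12 markers did, 7 of them with an unadjusted p under 0.05, and the mean of the list ran from 8.52 to 8.54 in wild type and from 8.81 to 8.89 in knockout. For Leydig cells it was 5 of 5 (2 under 0.05), with means from 7.93 to 8.19 and from 8.21 to 8.52. Of the Leydig markers looked for, Hsd3b6, Insl3 and Lhcgr had no probe set of exactly that symbol and are not counted. Cyp11b1, which is counted, was dim, at 3.53 in wild type and 3.57 in knockout. For myoid cells and stroma it was 6 of 6 (4 under 0.05), from 7.53 to 7.98 and from 8.12 to 8.47. Adipose markers (5 of 5, with 3 under 0.05) ran from 4.97 to 5.53 and from 5.73 to 5.98, and leukocyte markers (6 of 6, with 0 under 0.05) overlapped, from 5.47 to 5.62 and from 5.44 to 6.03. Among the adipose markers, Fabp4 differed by 2.21, with wild-type values from 4.23 to 6.51, and the rest by 0.11 (Lep) to 0.40 (Cidec). Cidec (means of 3.19 in wild type and 3.59 in knockout) and Lep (2.95 and 3.06) were dim, with means below the lower quartiles of the arrays. Plin1, also looked for, had no probe set of exactly that symbol. Liver markers, of a tissue not sampled and at means from 3.24 to 5.80, were also above 0 in 4 of 4 (1 under 0.05). Sign counts alone do not set the somatic lists apart from them. The median difference was 0.10 for liver, 0.38 for Sertoli, 0.28 for Leydig, 0.52 for myoid and stroma, 0.34 for adipose and 0.28 for leukocyte markers. Inside the first and second set of arrays, the medians were -0.09 and 0.32 for leukocyte markers and 0.23 and 0.34 for Leydig markers. They were 0.31 and 0.34 for Sertoli, 0.33 and 0.83 for myoid and stroma, 0.27 and 0.26 for adipose, and 0.25 and 0.08 for liver. Above 0 in both sets were 2 of 6 leukocyte and 2 of 5 Leydig markers. The counts were 11 of 12 (Sertoli), 4 of 6 (myoid and stroma), 4 of 5 (adipose) and 3 of 4 (liver). Spermatocyte markers, 6 of 10 downwards (5 under 0.05), ran from 10.54 to 10.65 and from 10.46 to 10.52. Above 0 were 7 of 10 spermatid markers (0 under 0.05) and 5 of 8 spermatogonia markers, of which 1 below 0 was under 0.05. The part of these lists in the differences of Hmgcs1, Ebp, Srebf2 and Mbtps2 was not tested.

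Of 35 further genes around the pathway, 0 passed the adjusted threshold in limma, while 4 higher and 3 lower ones had p under 0.05 before adjustment, together 20.0% against 17.3% of all genes. Of 7 other enzymes of the pathway and its branches, 0 had an unadjusted p under 0.05, and their median was -0.05. Of 6 other genes that control SREBP, 1 was higher and 1 lower at that level. Fbxw7, which marks nuclear SREBP for breakdown, read 9.20, 9.03 and 8.70 in wild type and 8.60, 8.42 and 8.49 in knockout, without overlap, a difference of -0.47 (SE 0.13, limma adjusted p = 0.217). Rnf145, a ubiquitin ligase that acts on SCAP, differed by 0.20 (limma adjusted p = 0.321).

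Among 14 genes of lipoprotein uptake, storage and export, Lipa, the lysosomal lipase that frees cholesterol from its esters, was higher in every knockout array. It read 6.39, 6.20 and 6.21 against 6.64, 6.60 and 6.76, and differed by 0.40 (SE 0.10, limma adjusted p = 0.190), with 0.34 in the first set and 0.47 in the second. Gramd1b, which carries plasma membrane cholesterol inwards, differed by -0.28. Of 8 fatty acid genes known as SREBP1 targets, the desaturase Scd1 differed by 0.60 (SE 0.23, limma adjusted p = 0.296), with overlapping groups, 0.11 in the first set and 0.67 in the second, and 0.39 with the sets as a block. Scd2, a related desaturase, differed by 0.34 and Acss2, which makes acetyl-CoA from acetate, by -0.24, both without overlap. The others of the 8 had an unadjusted p of 0.05 or more, and the median of the 8 was -0.01.

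The number of arrays limits these comparisons. Array weights, which gave knockout 1 a weight of 0.38 and knockout 2 a weight of 2.74, were the only alternative in which members passed: 7 probe sets (10.9% of 64, against 7.07% of the array), higher for Hmgcs1, Ebp, Msmo1 and Mbtps2 and lower for 1 probe set each of Mbtps1 and Msmo1.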

How the data were processed

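The deposited table holds log2 values, 1 per probe set, and the submitters' processing notes name Affymetrix Expression Console 1.4.1 as the authors' software. That the scale is log2 was inferred from the range of the values. How the authors summarized and normalized, and which genome build they used, is not stated in the sources used here. Of 45101 probe sets, 64 controls were left out, and no other filter was applied. Members were matched by platform symbol, and a probe set with several symbols was not used. Their gene identifiers were all found (29 of 29) in a RefSeq table of assembly GRCm38.p6, which gave chromosomes and promoters.

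Genotypes were compared in R 4.3.3 with limma 3.58.1 (lmFit and eBayes, two-sided) over all probe sets, with p-values adjusted by Benjamini-Hochberg and called under 0.05. Each adjusted p is from such a fit. The code was also run on simulated data with planted changes and no shift between the 18S sets. It had to pass only for changes larger than any member difference, so it gives no measure of power for the members. All members are described; per-array values are given for members with an unadjusted p under 0.05, groups that do not overlap or probe sets that differ in sign, and for some others as examples. The rule for promoters was to print members with the sterol element in the form TCACNCCAC. Hmgcs1 met it, and the other 3 promoters were added after values were seen. From the further lists, genes with an unadjusted p under 0.05 were named. Members, lists and the 18S sets were chosen with earlier results of these data known. Alternatives were blocks, normalizations, moderation, array weights, a level filter, the threshold, averaging a gene's probe sets and each array left out.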

Additional observations from a re-analysis of the deposited data

How the results depend on the processing

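For the members, 0 probe sets passed as higher and 0 as lower in every setting run except array weights, which gave 5 and 2. Over the whole array, the fit as reported gave 25 higher and 20 lower. Title code runs are arrays with consecutive numbers in their sample titles. They are wild type 1 alone, wild type 2 with knockout 1, and wild type 3 with knockout 2 and knockout 3. With these runs as a block, wild type 1 adds nothing to the difference between genotypes. Other counts were 12 and 4 with title code runs as a block, 66 and 44 with an intensity trend and robust moderation, 1654 and 1532 with array weights, 48 and 52 at an adjusted p under 0.1, 42 lower above the median level only, and 6 lower with the replicate block. Leaving out 1 array gave 8 (without wild type 2) to 178 (without wild type 3) higher and 4 (without wild type 2 or knockout 3) to 998 (without wild type 3) lower. The cause was not tested. The median difference over the member genes, 0.06 as reported, ran from -0.02 with title code runs as a block to 0.10 without wild type 3.

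The replicate numbers were not taken as pairs, since the correlation had to be over 0.1 for every pair and same-numbered arrays had 0.26, 0.07 and 0.12. The best match was the same number for wild type 1 and 2 and knockout 1 and 3, while wild type 3 and knockout 2 matched each other best (0.13). This is a hint from the data only. With the replicate block, 22 probe sets were higher, and no member passed.

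The 15 members that kept their sign in every alternative include Hmgcs1 (0.24, with title code runs as a block, to 0.53), Ebp (0.34 to 0.68), Srebf2 (-0.41 to -0.22), Mbtps2 (0.30 to 0.61) and Msmo1 (0.07 to 0.77). The other 14 differed by at most 0.17 and changed sign in 44 of their 209 values. The title code block turned Fdps to -0.09, Ggps1 to -0.15, Tm7sf2 to -0.06, Sc5d to -0.11 and Npc1 to -0.02, and the block of 18S sets turned Fdps to -0.05, Ggps1 to -0.09, Tm7sf2 to -0.10 and Sc5d to -0.10. Quantile normalization gave 0.01 for Mvk, 0.01 for Idi1 and 0.04 for Insig2. Array weights gave 0.12 for Mvk, 0.02 for Mvd, 0.04 for Hsd17b7, 0.06 for Insig2, -0.01 for Stard4 and -0.09 for Npc1. Averaging the probe sets of each gene gave 0.05 for Idi1, 0.03 for Fdft1, 0.15 for Hsd17b7, 0.07 for Insig2 and -0.11 for Mbtps1. With 1 array left out, the ranges were -0.10 to 0.08 for Mvk, -0.16 to 0.01 for Pmvk, -0.12 to 0.04 for Mvd, -0.11 to 0.01 for Idi1, -0.05 to 0.38 for Fdps, -0.11 to 0.14 for Ggps1, -0.12 to 0.23 for Tm7sf2, -0.09 to 0.06 for Hsd17b7, -0.12 to 0.21 for Sc5d, -0.09 to 0.07 for Insig2 and -0.09 to 0.16 for Npc1. None of these values was called, and the cause was not tested.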
